A study of Sus scrofa with 8 samples.

Results

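Keratins and claudins were followed in single-cell RNA sequencing of developing pig somites and myotome. The members were all genes whose symbol in the deposited gene list is KRT or CLDN followed by a number (for keratins with an optional letter A to C), which gave 57 of the 21301 genes, 37 keratins and 20 claudins. The rule reads the symbol and no measured value. The study sampled somites at embryonic day (E) 16, E18 and E21 and the myotome, from which skeletal muscle develops, at E28. Each stage was taken from Tibetan pigs (ZZ) and from Duroc x Tibetan crossbred pigs (DZ), which gave 8 libraries, named here by stage and breed (E16-ZZ to E28-DZ). Where 8 values are given in a row they run by stage, with ZZ before DZ in each. Each library was made from a pool of 5 embryos of a sow, and the labels name no treatment and no genetic change in either breed. A stage therefore had 1 library per breed, and p-values between whole libraries measure the spread that stage and breed leave between such pools.

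Keratins are the intermediate filament proteins of epithelial cells. A filament needs a partner from each of 2 classes, type II (among them KRT8, KRT7 and KRT5) and type I (among them KRT18, KRT14, KRT10 and KRT15), and the pair KRT8 and KRT18 is the one found in simple epithelia and in early embryonic epithelium. Claudins are membrane proteins that form the strands of tight junctions, and the members present set how tight and how ion-selective the barrier is. CLDN4 and CLDN7 are claudins of tight epithelia, CLDN6 marks embryonic epithelium, CLDN5 closes the junctions of endothelium, and CLDN11 is known from myelin and from the Sertoli cells of the testis.

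After limits on quality 74147 of 90688 barcodes were kept, with 5436 to 10956 cells and 39653134 to 57774085 UMIs in a library and a median of 3403 to 6146 UMIs per cell. A UMI marks 1 captured RNA molecule. The library E16-ZZ stood apart, since 39.2% of its barcodes had more than 10% of their UMIs on mitochondrial genes, against 1.05% to 9.15% in the other 7 libraries. Of 89679 distinct barcodes 1001 occurred in more than 1 library, 23 to 49 in each of the 28 pairs of libraries. The E16 libraries were processed with Cell Ranger 3.1.0 and the later ones with 3.0.2, so version and stage cannot be told apart at E16, nor tissue and stage at E28.

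Levels are given as CPM, the UMIs of a gene scaled to counts per 1000000 UMIs of a whole library or of the gated cells of a library. Of the 57 members, 45 had at least 1 UMI in the 8 libraries (27 keratins and 18 claudins) and 21 had 100 UMIs or more (10 keratins and 11 claudins). In 12 members no UMI was seen in any library: KRT1, KRT12, KRT26, KRT31, KRT32, KRT39, KRT73, KRT74, KRT77, KRT82, CLDN17 and CLDN18. A count of 0 allows a level of up to 0.0519 to 0.0757 CPM (3 UMIs of a library, counting error only). KRT8 and KRT18 held 543806 and 273682 UMIs, KRT14 75111 and KRT10 26814, and the highest claudin, CLDN6, 17629. Between 1 and 91 UMIs in all were found for KRT36, CLDN19, KRT23, CLDN14, KRT20, KRT4, CLDN2, KRT78, KRT72, KRT24, CLDN25, CLDN3, KRT85, KRT25, KRT79, KRT28, KRT3, CLDN22, KRT84, CLDN16, KRT75, KRT2, KRT40 and KRT71.

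Across stages the simple-epithelium keratins and the claudins of tight and embryonic epithelium fell by orders of magnitude, while CLDN11 rose and KRT10 and CLDN5 did not pass the test. Of the 24 members that passed the filter on low counts, 20 differed between stages (edgeR's quasi-likelihood F test, adjusted p under 0.05), beside 51.0% of all 15131 genes tested. The 4 that did not were CLDN5, CLDN15, CLDN19 and KRT10. In whole libraries, fewer cells of a type and less RNA per cell cannot be told apart.

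KRT8, the type II keratin of simple epithelium, measured 4381, 3464, 1601, 1344, 81.9, 69.3, 26.4 and 2.78 CPM from E16-ZZ to E28-DZ. Its partner KRT18 was at 2347, 1762, 802, 589, 28.8, 15.3, 4.48 and 0.926 CPM in the same order (ZZ before DZ at each stage). For both genes every library of a stage lay below every library of the stage before. From E18 to E21 KRT8 fell by 4.35 on the log2 scale (SE 0.77, adjusted p = 0.0119) and KRT18 by 5.14 (SE 0.44, adjusted p = 0.00155). From E16 to E18 the differences were smaller, -1.57 for KRT8 (SE 0.69, adjusted p = 0.197) and -1.74 for KRT18 (SE 0.38, adjusted p = 0.0502), and neither passed the test. With DESeq2, with no filter on low counts, with no doublets removed or with a mitochondrial limit of 5%, KRT18 passed and KRT8 did not. From E21 to E28 KRT18 fell by 3.12 (SE 0.43, adjusted p = 0.0115), whereas KRT8, at -2.69 (SE 0.75), had an adjusted p of 0.0731.

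**Figure D1:**
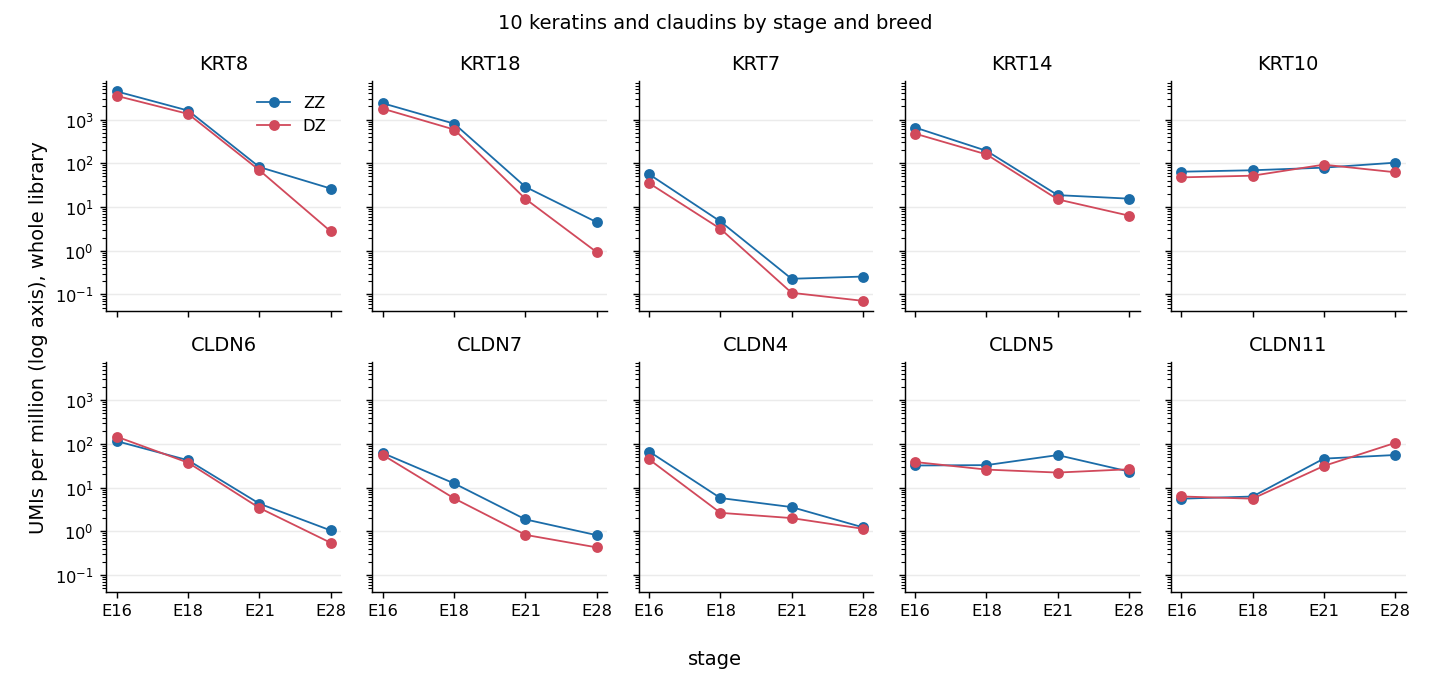
Levels of 10 keratins and claudins in whole libraries (CPM, log axis) against stage; each point is 1 library, blue for ZZ and red for DZ, and lines join the libraries of a breed. KRT8 runs from 4381 CPM in E16-ZZ to 2.78 in E28-DZ, while KRT10 stays between 47.5 and 103 CPM and CLDN11 runs upward from 5.55 CPM in E16-ZZ to 105 in E28-DZ.

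The gene that the files name KRT14, a type I keratin of basal epithelial layers, moved with them. In ZZ it went from 655 CPM at E16 over 193 and 18.7 to 15.5 CPM at E28, and in DZ from 474 over 159 and 14.9 to 6.34 CPM. It fell by 1.83 on the log2 scale from E16 to E18 (SE 0.27, adjusted p = 0.023) and by 3.48 from E18 to E21 (SE 0.30, adjusted p = 0.00154), and did not pass the test at the last step (-0.71, SE 0.28, adjusted p = 0.167). Its identity is uncertain, because type I keratins are close in sequence, no KRT17 or KRT19 symbol stands in the gene list, and the RefSeq gene table used here pairs no KRT14 entry with its identifier, ENSSSCG00000017448. KRT7, a type II keratin of ducts and other simple epithelia, was at 55.8 and 34.9 CPM at E16, 4.66 and 3.17 at E18, and between 0.0712 and 0.256 CPM in the 4 later libraries. The RefSeq table lists the KRT7 entry as a long non-coding RNA with no protein. KRT7 fell at both early steps, by 3.69 (SE 0.21, adjusted p = 0.00198) and by 4.66 (SE 0.29, adjusted p = 0.000593). KRT10, known from the upper layers of skin, was the exception among the abundant keratins: it lay between 47.5 CPM in E16-DZ and 103 CPM in E28-ZZ, the stages overlapped, and the test across stages gave an adjusted p of 0.339.

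CLDN6, the claudin of embryonic epithelium, went from 115 CPM at E16 over 42.0 and 4.28 to 1.05 CPM at E28 in ZZ, and from 145 over 37.0 and 3.41 to 0.546 CPM in DZ. It fell at every step, by 1.90 (SE 0.23, adjusted p = 0.0151), by 3.45 (SE 0.25, adjusted p = 0.00112) and by 2.27 on the log2 scale (SE 0.29, adjusted p = 0.00998). CLDN7 went from 61.0 over 12.4 and 1.87 to 0.813 CPM in ZZ, and from 54.9 over 5.62 and 0.826 to 0.427 CPM in DZ. CLDN4, the other claudin of tight epithelia, went from 66.5 CPM at E16 over 5.75 and 3.57 to 1.23 CPM at E28 in ZZ, and from 43.8 over 2.64 and 1.9998 to 1.14 CPM in DZ. Most of the decline of CLDN4 thus came before E18 (-3.94, SE 0.22, adjusted p = 0.00198), and from E18 to E21 it did not pass the test (-0.66, SE 0.21, adjusted p = 0.0676). CLDN7 fell at both of those steps, by 2.98 (SE 0.25, adjusted p = 0.00705) and by 2.83 (SE 0.28, adjusted p = 0.00237).

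KRT8, KRT18 and CLDN4 are the named members whose 250 bases before the RefSeq gene start (Sscrofa11.1) hold the letters CAGGTG at least 2 times, which is why their upstream sequences are shown. CAGGTG is the E-box read by the ZEB and SNAI repressors. It was searched on both strands, and the matches in these 3 sequences did not overlap a match of another motif searched. Of 19548 protein-coding genes 19.6% hold it at least 1 time in that window and 2.86% at least 2 times. Of the 51 members with a RefSeq entry, KRT7 with its non-coding one among them, these numbers were 16 (31.4%) and 4 (7.84%), and of the 9 named members 3 and 3. The windows are chr5:18180278-18180527, reverse strand for KRT8, chr5:18217436-18217685, forward strand for KRT18 and chr3:11039461-11039710, forward strand for CLDN4, each written 5′ to 3′ on the strand of its gene, with CAGGTG or its reverse complement in capitals.
KRT8: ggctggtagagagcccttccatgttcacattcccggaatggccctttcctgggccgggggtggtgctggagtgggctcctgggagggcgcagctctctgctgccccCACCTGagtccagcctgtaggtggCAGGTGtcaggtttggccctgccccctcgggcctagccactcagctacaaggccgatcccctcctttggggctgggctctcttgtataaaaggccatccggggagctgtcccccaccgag
KRT18: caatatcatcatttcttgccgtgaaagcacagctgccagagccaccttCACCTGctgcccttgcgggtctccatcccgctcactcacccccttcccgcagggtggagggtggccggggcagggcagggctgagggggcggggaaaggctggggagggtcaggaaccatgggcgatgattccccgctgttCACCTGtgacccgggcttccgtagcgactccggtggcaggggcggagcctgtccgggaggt
CLDN4: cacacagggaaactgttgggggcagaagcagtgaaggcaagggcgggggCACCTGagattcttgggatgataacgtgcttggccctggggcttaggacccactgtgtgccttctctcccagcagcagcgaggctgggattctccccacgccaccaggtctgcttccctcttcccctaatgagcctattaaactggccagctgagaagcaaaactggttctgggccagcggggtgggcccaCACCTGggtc
The other motifs searched, both strands, were GGGCGG (45.9% of all promoters, 12 of the 51 members), GCCNNNGGC (22.0%, 9 members), TATAAA (9.77%, 9 members) and AACCGGTT (0.09%, no member). In the KRT8 window TATAAA begins 36 bases before the gene start. A match is a description of the letters and not of a bound site. The genes themselves are at chr5:18172423-18180277 for KRT8 and chr5:18217686-18221432 for KRT18, and CLDN4 is at chr3:11039711-11053930.

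CLDN11 ran the other way. It was at 5.55, 6.24, 6.23 and 5.56 CPM in the 4 early libraries and at 45.8, 31.1, 55.5 and 105 CPM in the 4 late ones (E21 and E28). The early and late libraries did not overlap, and CLDN11 rose by 2.61 from E18 to E21 (SE 0.29, adjusted p = 0.00329), while E28 against E21 gave 1.02 (SE 0.27, adjusted p = 0.0631). CLDN5 was at 31.9, 38.3, 32.6 and 25.7 CPM in the early libraries and at 55.3, 22.0, 23.2 and 26.2 in the late ones, which overlapped (across stages, adjusted p = 0.208). CLDN1 and CLDN10 differed across stages (adjusted p = 0.0294 and 0.0157), CLDN1 without overlap between E28, at 8.27 and 15.9 CPM, and the 6 earlier libraries, at 1.37 to 3.91 CPM. CLDN10 was at 7.71 and 9.88 CPM at E28, 4.31 and 8.35 at E16, and 2.86 to 4.35 CPM in between, so E16 and E28 overlapped.

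Counted step by step, 7 of the 24 members were lower at E18 than at E16 and none was higher, beside 2.91% and 2.15% of all genes. At E21 against E18, 7 were lower and 2 higher, beside 10.7% and 11.2%, and at E28 against E21, 3 were lower and 2 higher, beside 4.27% and 4.35%. The median difference of the 24 members from E16 to E18 was -1.79 on the log2 scale (-1.55 with members absent from a stage at their bound, or at 0 where no bound can be given) beside 0.02 for all genes, and at the other steps it was 0.12 and -0.11, beside 0.01 and -0.01. The filter on low counts ran over all 8 libraries together. A sparse member could thus pass it through the stages where it was high. KRT36 had 19 and 24 UMIs at E28 and 0 to 2 per earlier library. KRT23 had 8 to 33 UMIs per library at E16 and E18 and 0 or 1 later. For such members a difference was partly set by the filter. These counts and medians, and the count across all stages, carry them. The last step rested on single libraries: without E21-ZZ no member passed, and without E21-DZ 3 did. Without any single library of E16 or E18, 2 to 4 members passed at the first step, CLDN4 and KRT7 in every case. With a mitochondrial limit of 5% per barcode, CLDN4, CLDN8 and KRT35 no longer passed at the first step, nor CLDN4, KRT35 and KRT36 at the last.

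Among the sparse members, CLDN8 was at 3.58 and 3.71 CPM at E16 and at 0 to 0.45 CPM in the later 6 libraries, and it fell from E16 to E18 (-4.06, SE 0.78, adjusted p = 0.0386). KRT23 was at 0.152 to 0.832 CPM in the early and at 0 to 0.0232 in the late libraries, and it fell from E18 to E21 (-4.35, SE 1.03, adjusted p = 0.0281). KRT5, the usual partner of KRT14 in basal layers, had no UMI at E18 and 2.57 and 1.4999 CPM at E21, at least 37.4-fold higher when E18 is set at 3 UMIs per library. Its level stayed low throughout, up to 3.60 CPM in E28-ZZ, far below that of KRT14 at E16. KRT15, another basal keratin, was at 4.88 and 1.61 CPM at E28 and at 0.0692 to 0.717 CPM before (across stages, adjusted p = 0.0057). KRT35 and KRT36, type I keratins of hair, rose from E21 to E28, KRT35 from 0.0682 and 0.0652 to 1.05 and 0.831 CPM and KRT36 from 0 and 0.0217 to 0.442 and 0.57 CPM. These rest on 112 and 49 UMIs in all, and both calls were lost when any 1 of the 4 libraries of E21 and E28 was left out. KRT35 was also called lower at E18, where it had no UMI, than at E16, at 0.177 and 0.331 CPM (adjusted p = 0.0374). That call rests on 26 UMIs. It was lost with a mitochondrial limit of 5% and when any 1 library of E16, E18 or E21 was left out. KRT27, a hair root keratin, was at 0 in 3 of the 4 early libraries and highest in E28-DZ, at 2.30 CPM. KRT80, CLDN9 and CLDN23 differed across stages too, none above 1.38 CPM in any library. The genes CLDN6 and CLDN9 face each other on opposite strands with 99 bases between them, so the low CLDN9 counts are uncertain.

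Gates on marker genes asked which cells held the members. A cell was called EPCAM+ at 2 UMIs or more of EPCAM, an adhesion protein of epithelium. A HAND+ keratin-rich cell had a UMI of HAND1 or HAND2, factors of the heart and lateral plate, no EPCAM, and KRT8 plus KRT18 at 20 or more per 10000 UMIs. Endothelial cells had 3 of 8 endothelial markers, neural cells 2 of 9 and mesenchymal cells 2 of 5, all without EPCAM and the mesenchymal cells also without HAND1 and HAND2. Cells that met several gates were left out. The gates held 1547 EPCAM+, 4992 HAND+ keratin-rich, 2071 endothelial, 6313 neural and 9292 mesenchymal cells, and 46951 cells (63.3%) met no gate.

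EPCAM+ cells numbered 484, 726, 235 and 69 in the 4 early libraries and 17, 8, 8 and 0 in the later ones. HAND+ keratin-rich cells were 1410, 1838, 952 and 760 early, 11 in E21-ZZ, 21 in E21-DZ and 0 at E28. Sums with fewer than 20 cells were not used, so EPCAM+ levels come from the 4 early libraries and HAND+ keratin-rich levels from those and from E21-DZ. Other markers fitted the EPCAM+ label in part. CDH1, the cadherin of epithelium, was at 23.1 to 43.7 CPM in EPCAM+ cells and at 0 to 1.92 CPM in HAND+ keratin-rich cells. CDH2, another cadherin, was higher in EPCAM+ cells too, at 25.6, 57.3, 47.6 and 72.9 against 15.4, 25.8, 33.3 and 29.1 CPM in the 4 early libraries. EPCAM+ cells also held HAND1 at 14.1 to 75.7 CPM, beside 157 to 650 CPM in HAND+ keratin-rich cells. PAX6, a factor of neural progenitors, was at 5.93 to 26.0 CPM in EPCAM+ cells. The mesenchymal filament gene VIM was at 138 to 635 CPM in EPCAM+ and at 1107 to 3090 CPM in HAND+ keratin-rich cells. The keratin limit cuts a continuous range: of 6627 HAND+ cells without another gate, 497 lay at 10 to 20 and 786 at 20 to 40 KRT8 plus KRT18 UMIs per 10000.

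EPCAM+ cells carried the broadest set of members. Gated sums were compared in a fit with library as a covariate, in which EPCAM+, HAND+ keratin-rich, endothelial and neural cells share the mesenchymal cells as control. Against those, 14 of 16 members tested were higher and none was lower, beside 13.4% and 9.64% of all 13085 genes, and the median difference was 3.22 on the log2 scale (2.76 with KRT80, which had no UMI in the mesenchymal cells of these libraries, set to 0) beside 0.01 for all genes. KRT10 and CLDN11 did not pass. The filter on low counts ran over the sums of all gates together. A sparse member could thus pass it through the EPCAM+ sums, where it was high. CLDN8 had 71.1% of its 415 UMIs in EPCAM+ and 1.45% in mesenchymal cells, and CLDN9 59.3% of 113 and 1.77%. For such members a higher level was partly set by the filter, and the count and median carry them. CLDN4 was at 369, 202, 75.9 and 101 CPM in EPCAM+ cells of E16-ZZ, E16-DZ, E18-ZZ and E18-DZ and at 4.65, 4.11, 0.803 and 0.332 CPM in mesenchymal cells (6.71 higher on the log2 scale, SE 0.34, adjusted p = 3.78e-13). CLDN7 was at 347, 266, 148.8 and 185 CPM against 12.4, 5.48, 1.61 and 2.83 (5.93, SE 0.33, adjusted p = 1.45e-12). For both, every EPCAM+ sum lay above every sum of the other 4 gates.

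KRT7 was at 296, 160, 35.7 and 50.7 CPM in EPCAM+ cells (5.36 above mesenchymal, SE 0.44, adjusted p = 5.43e-09) and CLDN6 at 320, 384, 119 and 203 CPM (3.64, SE 0.70, adjusted p = 0.000375). KRT8 was at 5777, 6751, 1767 and 2831 CPM and KRT18 at 3843, 4950, 1268 and 1941 CPM there, 2.16 (SE 0.45, adjusted p = 0.000753) and 2.81 (SE 0.37, adjusted p = 2.38e-06) above mesenchymal cells. Among the less abundant claudins CLDN1, a claudin of skin, CLDN8 and CLDN10 were at 16.3 to 38.3, 6.70 to 21.3 and 6.18 to 26.6 CPM in EPCAM+ cells. CLDN9 and CLDN23, at 0.744 to 7.42 and 2.98 to 5.48 CPM, were higher too. KRT80, at 0 to 4.45 CPM, was also called. Its mean of 1.92 CPM lies under the 2.43 CPM that a count of 0 allows in mesenchymal cells of these libraries, so no fold is given.

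Per cell, a median of 70.4% of EPCAM+ cells over the 4 libraries had a UMI of CLDN7 and 59.9% of CLDN4, at median depths of 9070 to 10532 UMIs. In erythroid cells, red blood cell precursors that should lack both, the median share was 0 for each, with 5.48% and 4.11% in the highest library, at median depths of 3786 to 13072.5 UMIs. Thinned to 1500 UMIs per cell, with 5 of 1514 EPCAM+ cells left out as shallower, the shares in EPCAM+ cells were 31.3% and 22.5%. Within EPCAM+ cells the E18 libraries were lower than those of E16 for KRT8, KRT18, KRT14, KRT7, CLDN4, CLDN6, CLDN7 and CLDN8 and higher for CLDN1. With 2 libraries at each stage these differences were not tested.

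**Figure D2:**
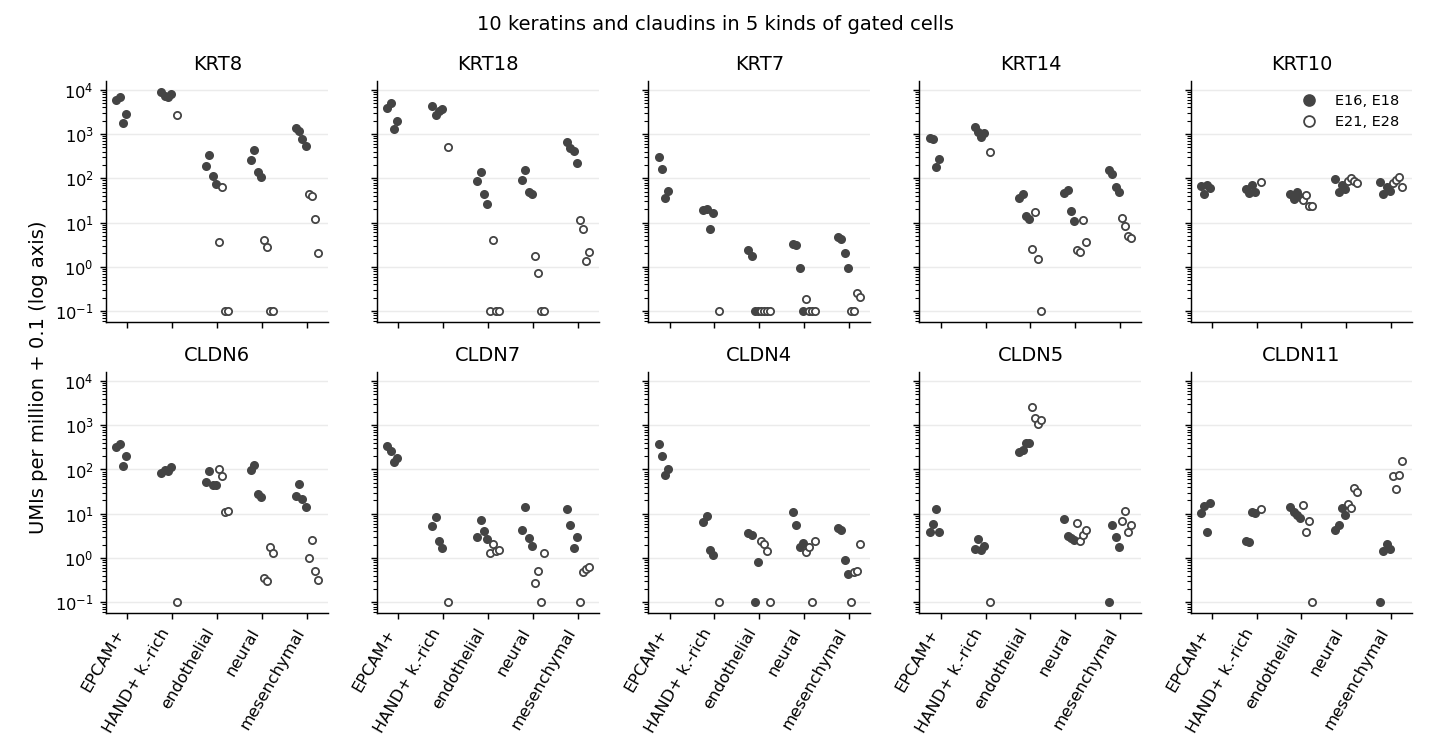
Levels of 10 keratins and claudins in 5 kinds of gated cells (CPM plus 0.1, log axis); each point is the sum over the gated cells of 1 library with at least 20 such cells, filled for E16 and E18 and open for E21 and E28. CLDN4 and CLDN7 stand above 75 CPM only in EPCAM+ cells, CLDN5 is at 249 to 2526 CPM in endothelial cells, and KRT10 spans 23.2 to 108 CPM over all gates.

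HAND+ keratin-rich cells held more KRT14, KRT7 and CLDN6 than mesenchymal cells, and less of most claudins tested than EPCAM+ cells. KRT8 and KRT18 chose these cells, and their levels are a description: KRT8 was at 8901, 7091, 6824 and 8136 CPM in the early libraries and at 2736 CPM in the 21 cells of E21-DZ, and KRT18 at 4340, 2638, 3394, 3671 and 496 CPM. Where HAND+ cells were taken without the keratin requirement, KRT8 and KRT18 were still 3.22 (SE 0.30, adjusted p = 4.53e-08) and 3.12 (SE 0.27, adjusted p = 1.18e-08) above mesenchymal cells. Over all libraries 53.7% of the KRT8 UMIs and 47.8% of the KRT18 UMIs lay in HAND+ keratin-rich cells, and 17.3% and 24.2% in EPCAM+ cells. Of the other 14 members tested, 5 were higher than in mesenchymal cells and none was lower, beside 10.4% and 5.67% of all genes, with a median difference of 0.07 (-0.0044 with KRT80 set to 0) beside 0.01. They were KRT14 (4.15, SE 0.33, adjusted p = 4.43e-09), KRT7 (2.69, SE 0.46, adjusted p = 0.000227), CLDN6 (2.52, SE 0.69, adjusted p = 0.0116), CLDN4 and KRT80. CLDN4 was at 0 to 8.79 CPM in these cells, beside 0 to 5.02 CPM in erythroid cells, and without E16-ZZ, E16-DZ, E18-DZ or E21-DZ it was no longer called. KRT80 rested on 14 UMIs (a mean of 0.319 CPM against 0, both under the level that a count of 0 allows, so no fold is given), and it was not called with DESeq2, with stricter gates or without E16-ZZ, E28-ZZ or E28-DZ. Without E18-DZ CLDN6 was not called either, and KRT14 and KRT7 were called without any single library. Where HAND+ cells were taken without the keratin requirement, KRT14, KRT7 and CLDN6 were still called.

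Set against each other, EPCAM+ and HAND+ keratin-rich cells of the same libraries differed in 11 of 14 members, 10 higher and 1 lower in EPCAM+ cells, beside 10.2% and 9.47% of all 13083 genes. The median difference was 3.11 beside -0.0011 for all genes. The same filter applied, so this count and median also carry sparse members that could pass through the EPCAM+ sums. CLDN4 was 57.2, 23.0, 52.8 and 94.6 times as high in EPCAM+ cells of E16-ZZ, E16-DZ, E18-ZZ and E18-DZ (5.40 on the log2 scale, SE 0.30, adjusted p = 1.95e-12). CLDN7 was 65.9, 31.1, 63.3 and 115 times as high (5.78, SE 0.31, adjusted p = 1.33e-12). CLDN1, CLDN5, CLDN8, CLDN9, CLDN10, CLDN23, KRT7 and KRT80 were also higher, KRT7 by 2.67 (SE 0.34, adjusted p = 3.35e-06) and CLDN5 by 1.70 (SE 0.45, adjusted p = 0.0075) at only 3.71 to 13.02 CPM. CLDN6 was abundant in both: it was at 84.6, 97.7, 92.6 and 114 CPM in HAND+ keratin-rich cells, the level in EPCAM+ cells was 3.78, 3.93, 1.28 and 1.78 times as high, and the difference did not pass the test (1.12, SE 0.69, adjusted p = 0.294).

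KRT14 was lower in EPCAM+ than in HAND+ keratin-rich cells, 797, 786, 184 and 270 against 1410, 1114, 868 and 1030 CPM (-1.67, SE 0.34, adjusted p = 0.000734). KRT8 and KRT18 were not tested between these gates, since they chose the cells. Taken without the keratin requirement, KRT8 was lower in EPCAM+ cells (-1.20, SE 0.33, adjusted p = 0.0113) and KRT18 did not pass (-0.41, SE 0.29, adjusted p = 0.374). The UMIs of KRT8 per UMI of KRT18 were 1.503, 1.36, 1.39 and 1.46 in EPCAM+ cells and 2.05, 2.69, 2.01 and 2.22 in HAND+ keratin-rich cells of the early libraries, and these ranges did not overlap.

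**Figure D3:**
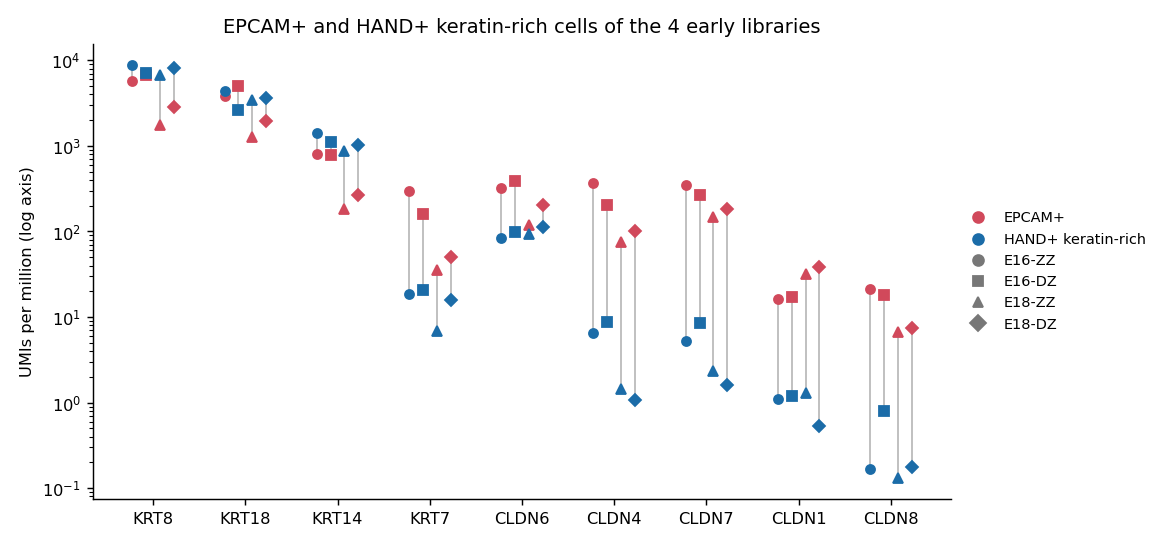
Levels of 9 keratins and claudins (CPM, log axis) in EPCAM+ (red) and HAND+ keratin-rich cells (blue); each symbol is 1 of the 4 early libraries and grey lines join the pairs of a library. CLDN4 and CLDN7 are 23.0 to 115 times as high in EPCAM+ cells, CLDN1 and CLDN8 are higher there in every library on 14 CLDN8 UMIs in all HAND+ keratin-rich sums, KRT14 is lower in EPCAM+ cells of every library, and KRT8, KRT18 and CLDN6 lie closer together.

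Both members of the KRT8 and KRT18 pair were found together in 95.0% of EPCAM+ cells of E16-ZZ and of E16-DZ, in 54.5% of those of E18-ZZ and in 69.6% of those of E18-DZ. Thinned to 1500 UMIs the shares were 88.8%, 83.7%, 27.9% and 52.2%, so the order of the stages was the same at equal depth. In erythroid cells of the early libraries 9.52% to 43.2% had both, and 0.69% to 5.71% after thinning. Erythroid cells of the late libraries held KRT8 without its partner: in E21-DZ 175 UMIs of KRT8 and 0 of KRT18 were counted in 64 cells, in E21-ZZ 35 and 0, in E28-ZZ 29 and 0 and in E28-DZ 28 and 0. KRT8 was at 215 CPM in erythroid cells of E21-DZ against 69.3 CPM in that whole library, and at 87.3 and 87.1 CPM at E28 against 26.4 and 2.78. In the early libraries erythroid cells had 3.13 to 9.92 KRT8 UMIs per KRT18 UMI, above the range of either keratin-rich gate in those libraries. HAND+ cells below the keratin limit had 2.66 to 4.08 in the same libraries, which overlapped the erythroid range. Mesenchymal cells of the late libraries had 0.947 to 9.31.

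**Figure D4:**
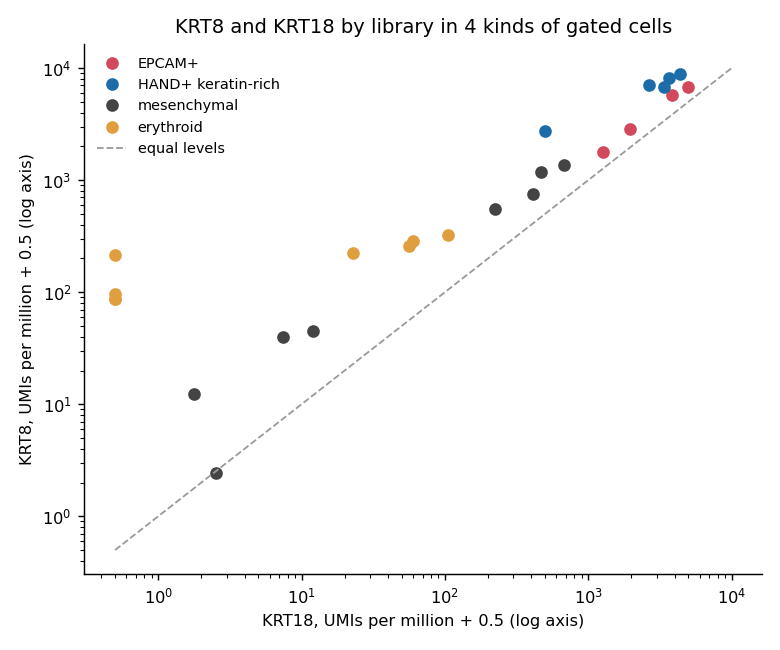
KRT8 against KRT18 (CPM plus 0.5, both axes log) in 4 kinds of gated cells; each point is the sum over the gated cells of 1 library with at least 20 such cells, and the dashed line marks equal levels. Erythroid sums of the 4 late libraries stand at the left edge, with KRT8 at 87.1 to 215 CPM and no KRT18 UMI.

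Endothelial cells were set apart by CLDN5. It was at 249, 281, 388 and 404 CPM in endothelial cells of E16-ZZ, E16-DZ, E18-ZZ and E18-DZ and at 2526, 1478, 1088 and 1340 CPM in the corresponding late ones. Every endothelial sum lay above every sum of the other 4 gates compared, where CLDN5 was at 0 to 13.02 CPM (against mesenchymal cells 7.68, SE 0.31, adjusted p = 4.15e-17), and these cells held 77.8% of all CLDN5 UMIs. Early and late libraries did not overlap within the gate, and CLDN5 rose by 2.17 on the log2 scale (SE 0.23, adjusted p = 0.000203). The summed level of the 8 endothelial markers, which chose the cells, was 3558 to 3954 CPM early and 4460 to 6436 CPM late, and its part in the rise was not tested. A UMI of CLDN5 was found in 62.5% to 89.1% of endothelial cells (29.8% to 73.4% thinned to 1500 UMIs) and in 0 to 1.37% of erythroid cells. The level in whole libraries, by contrast, overlapped between early and late, while endothelial cells were 209 to 866 in the early and 49 to 101 in the late libraries.

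CLDN6 was also higher in endothelial than in mesenchymal cells (2.82, SE 0.70, adjusted p = 0.00158). It was at 51.0, 93.0, 45.2 and 44.8 CPM in the early libraries, 104 and 69.4 at E21, and 10.9 and 11.6 at E28. In E21-ZZ and E21-DZ this was above the whole library, at 4.28 and 3.41 CPM, and erythroid cells held 0 UMIs of CLDN6 in all 4 late libraries. Late against early within the gate did not pass the test (-0.39, SE 0.56, adjusted p = 0.651). In all, 2 of 16 members were higher and 7 lower in endothelial than in mesenchymal cells, beside 23.8% and 24.4% of all genes, with a median of -1.08 (-0.82 with KRT80 and CLDN23, which had no UMI in endothelial cells, set to 0) beside -0.05. The lower ones were KRT8, KRT18, KRT14, KRT10, CLDN1, CLDN10 and CLDN23. For CLDN23 the count of 0 allows up to 2.67 CPM in endothelial cells, above its mean of 0.449 CPM in mesenchymal cells. No lower level is therefore read for CLDN23, and it was not called with DESeq2 or with stricter gates. With a mitochondrial limit of 5% or with looser gates the count fell from 9 to 3, and under the former only CLDN5, KRT8 and KRT18 were called.

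Neural cells differed from mesenchymal cells in 7 of 16 members, 3 higher and 4 lower, shares near the 18.9% and 18.3% of all genes (median -0.80, or -0.53 with CLDN9 set to 0, beside 0.0018). The higher ones were CLDN10, which forms ion-selective pores, CLDN4 and KRT80, and the lower ones were KRT8, KRT18, KRT14 and CLDN1. CLDN10 was at 8.52, 18.0, 3.41 and 6.15 CPM in neural cells of the early libraries, 5.00 and 9.77 at E21, and 59.2 and 56.3 at E28 (2.17 above mesenchymal, SE 0.35, adjusted p = 1.54e-05). The E28 libraries thus stood apart from the other 6, with 20.5% and 20.3% of neural cells with a UMI against 1.54% to 9.06%, while late against early did not pass the test (1.62, SE 0.87, adjusted p = 0.166). The gate held 112 and 316 cells at E28 and 2793 and 1085 at E21. The summed neural markers were at 656 to 1120 CPM in early and 4387 to 6674 CPM in late neural cells. The make-up of the gate moved as well. PAX6, a factor of neural progenitors, was at 234 to 273 CPM in the early libraries, 69.9 and 58.2 at E21 and 0 in both libraries of E28. PRPH, a filament of peripheral neurons, was at 0 to 4.50 CPM early, 135 and 111 at E21, and 1084 and 2040 at E28. The part of these markers in the differences of CLDN10, KRT80 and the other members was not tested. CLDN4 was at 10.6, 5.50, 1.70 and 2.12 CPM in early neural cells, beside 4.00, 5.02, 2.40 and 0 CPM in erythroid cells, and a UMI was found in up to 4.76% of neural and 4.11% of erythroid cells of a library. Its call is therefore not read as expression in neural cells. KRT80 was at 0 to 9.96 CPM in neural cells, highest at E28 with 8.22 and 9.96 CPM. These cells held 21.4% of its 126 UMIs. It had no UMI in erythroid cells, but a count of 0 there allows up to 9.03 and 9.33 CPM at E28. That is near the neural level, so the erythroid count decides nothing for KRT80. Late against early within the neural gate, 4 of 8 members fell and 1 rose, beside 19.7% and 21.8% of 11106 genes. KRT8, KRT18, KRT14 and CLDN6 were lower, and CLDN11 was higher in late neural cells (1.24, SE 0.42, adjusted p = 0.0375). CLDN6 was at 94.8 and 129 CPM in neural cells at E16, 27.3 and 23.6 at E18, and 0.208 to 1.64 later, while erythroid cells had 0.933 to 11.7 CPM in the early libraries. For the keratins that fell, the CPM of early neural cells were set beside those of erythroid cells of their library. They were higher in 1 of 4 libraries for KRT8, 3 of 4 for KRT18 and 4 of 4 for KRT14. Median depths over all libraries were 3715 to 5790.5 UMIs in neural and 3786 to 13072.5 UMIs in erythroid cells. A background counted per cell was not tested, so no expression in neural cells is read from these counts. Erythroid cells of the late libraries held KRT8 without KRT18, and those of the early libraries held 24 to 186 KRT18 UMIs. How much of their KRT8 was background was not tested, and the comparison for KRT8 decides nothing. KRT8 was at 256, 442, 141 and 106 against 257, 325, 285 and 222 CPM, KRT18 at 91.6, 155.1, 49.8 and 43.6 against 56.0, 104, 59.3 and 22.4 CPM, and KRT14 at 46.9, 55.0, 18.1 and 10.6 against 21.3, 30.1, 17.4 and 10.3 CPM.

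In mesenchymal cells CLDN11 and CLDN1 rose, and KRT8, KRT18, KRT14 and CLDN6 were among the members that fell. Late against early, 6 of 12 members fell and 2 rose, beside 12.5% and 13.8% of 11476 genes, with a median of -2.22 beside 0.04. CLDN11 was at 0, 1.37, 1.93 and 1.496 CPM in the early and at 69.6, 36.7, 75.8 and 155.4 CPM in the late libraries (5.62, SE 0.54, adjusted p = 0.000419). CLDN1 was at 0, 2.74, 0.803 and 0.166 CPM early and at 5.52, 5.86, 10.1 and 21.3 CPM late (3.94, SE 0.74, adjusted p = 0.00497). Neither overlapped between the periods, and erythroid cells had 0 to 9.33 CPM of CLDN11 and 0 to 1.33 CPM of CLDN1. A UMI of CLDN11 was found in 0 to 1.28% of early and in 10.8% to 28.4% of late mesenchymal cells, and thinned to 1500 UMIs in 0 to 0.901% and 4.84% to 16.4%. The summed mesenchymal markers, which chose the cells, were at 339 to 428 CPM early and 560 to 832 CPM late, and the neural markers at 37.7 to 139 and 168 to 1061 CPM, and their part in these differences was not tested.

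The members that fell in mesenchymal cells were KRT8, KRT18, KRT14, KRT7, CLDN6 and CLDN7. KRT8 was at 1364, 1182, 758 and 547 CPM in early mesenchymal cells and at 44.2, 39.0, 11.9 and 1.93 CPM in late ones (-5.44, SE 0.79, adjusted p = 0.00192). KRT18 was at 675, 471, 413 and 222 CPM early and 11.5, 6.91, 1.27 and 2.04 CPM late (-6.57, SE 0.64, adjusted p = 0.000455). Early mesenchymal cells were above erythroid cells of their library in KRT18, KRT14 and CLDN6. They were above them in KRT8 too, but how far the erythroid KRT8 level is a background was not tested, as said for neural cells. KRT7, at 4.65, 4.11, 1.93 and 0.831 CPM early, and CLDN7, at 12.4, 5.48, 1.61 and 2.83 CPM, were low beside erythroid levels of 2.67, 2.23, 0.599 and 0 CPM for KRT7 and 5.33, 2.79, 1.80 and 0 CPM for CLDN7, and no loss of expression is read from them. In endothelial cells 3 of 7 members fell late against early and CLDN5 rose, beside 12.1% and 14.1% of 9186 genes, and the lower ones were again KRT8, KRT18 and KRT14. In early endothelial cells KRT8 was above erythroid cells of its library in 1 of 4 libraries, at 188, 340, 110 and 75.8 CPM, and KRT18 in 3 of 4, at 87.5, 136, 44.8 and 25.5 CPM. As for neural cells, depth was not allowed for, and the part of background in the erythroid KRT8 level was not tested. No expression in endothelial cells is read from these counts, and the KRT8 comparison decides nothing. Across all 8 libraries, KRT10 was at 43.8 to 108 CPM in mesenchymal, 48.5 to 99.8 in neural and 23.2 to 47.8 in endothelial cells, and of the 4 gates set against mesenchymal cells only the endothelial one passed the test (-0.82, SE 0.14, adjusted p = 1.91e-05). This KRT10 call was lost with a mitochondrial limit of 5%.

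**Figure D5:**
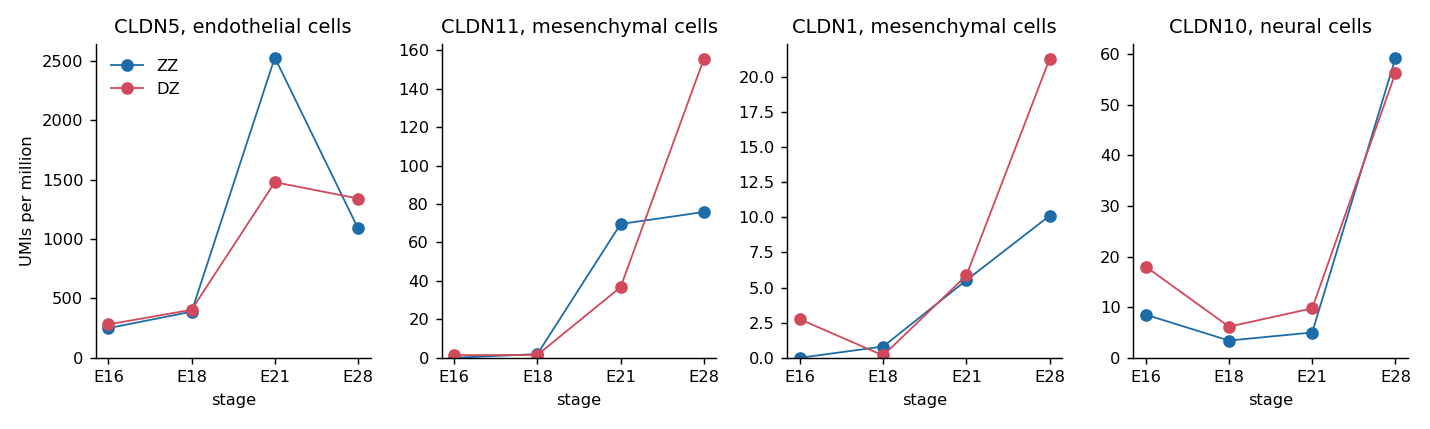
Levels of CLDN5 in endothelial, CLDN11 and CLDN1 in mesenchymal and CLDN10 in neural gated cells (CPM, linear axes from 0) against stage; each point is 1 library, blue for ZZ and red for DZ. CLDN5 reaches 2526 CPM in E21-ZZ, CLDN11 155.4 and CLDN1 21.3 CPM in E28-DZ, and CLDN10 stands at 59.2 and 56.3 CPM at E28 against 3.41 to 18.0 before.

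Other junction and filament genes were taken from 4 lists. Of 14 tight junction partners in the files, 8 were higher and 1 lower in EPCAM+ than in mesenchymal cells, beside 13.4% and 9.64% of all genes, among them LSR (1.93, SE 0.38), PATJ (1.41, SE 0.36) and F11R (3.69, SE 0.42), while JAM3 was lower (-0.78, SE 0.24). Of 19 desmosome and adherens junction genes tested, 12 were higher and 1 lower, with DSP, the desmosomal plaque protein, at 1.05 (SE 0.24) and PERP at 2.96 (SE 0.48). Against HAND+ keratin-rich cells 6 of these 19 were higher and 2 lower in EPCAM+ cells, DSP (-1.13, SE 0.25, adjusted p = 0.00129) and PKP2, and of the tight junction partners 6 were higher and 4 lower, beside 10.2% and 9.47% of all genes. A list of epithelial transcription and splicing regulators also held SPINT1, SPINT2, ST14 and RAB25, which are neither. Of its 19 genes tested 18 were higher and none lower in EPCAM+ than in mesenchymal cells, among them SPINT2 (6.02, SE 0.41) and GATA3 (4.26, SE 0.60). In EPCAM+ against HAND+ keratin-rich cells 16 were higher. The filter on low counts was the same as for the members, so sparse genes of these lists could pass it through the EPCAM+ sums. OVOL2 was at 2.60 to 4.08 CPM in EPCAM+ and at 0 in mesenchymal cells. GRHL2 was at 3.71 to 11.2 and 0 to 0.261 CPM. For such genes a higher level was partly set by the filter, and the counts carry them. Of 11 other intermediate filament genes tested, 3 were lower in EPCAM+ than in mesenchymal cells (VIM at -2.05, SE 0.29, NES and LMNB1) and 3 higher (LMNA, INA and PRPH).

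With stage, these lists moved as follows, under the same filter on low counts as the members. From E18 to E21, 9 of the 14 tight junction partners fell and JAM2 rose, 8 of 19 desmosome and adherens junction genes fell and PKP3 rose, and 6 of 20 genes of the epithelial list fell and none rose. Of 12 other intermediate filament genes 4 rose (INA, NEFL, PRPH and SYNC) and BFSP1 fell, beside 10.7% lower and 11.2% higher of all genes. From E16 to E18 the counts were 2, 4, 8 and 0 lower, with NES alone higher, beside 2.91% and 2.15%. From E21 to E28 they were 0, 5, 2 and 0 lower, with KLF5 and VIM higher, beside 4.27% and 4.35%. TJP1, the scaffold of tight junctions, fell by 0.41 from E18 to E21 (SE 0.10, adjusted p = 0.03).

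Between the breeds no member passed the test, beside 0.00661% of all genes (1 gene). By edgeR 5 of 24 members had an unadjusted p under 0.05, beside 6.21% of all genes: CLDN4, CLDN7, KRT7, KRT14 and KRT18, at -0.72, -0.80, -0.77, -0.59 and -0.88 on the log2 scale, all lower in DZ. These 5 and KRT8 were lower in DZ at all 4 stages. CLDN4 was the single member called by DESeq2 (-0.73, adjusted p = 0.0226). From E16 to E28 EPCAM+ cells made up 8.90%, 2.53%, 0.163% and 0.081% of the cells in ZZ and 7.64%, 0.733%, 0.087% and 0 in DZ, lower in DZ at each stage, while HAND+ keratin-rich cells made up 25.9%, 10.2%, 0.105% and 0 in ZZ and 19.3%, 8.08%, 0.228% and 0 in DZ. The part of either share in these differences was not tested. The breed by period interaction called no gene, beside a background of 0.0%, and no member had an unadjusted p under 0.05.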

How the data were processed

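The deposited files hold UMI counts per gene and barcode, which the authors made with Cell Ranger from 10x 3′ v3 libraries against Sscrofa11.1 with Ensembl release 98. Barcodes with under 200 genes, over 30000 UMIs or over 10% mitochondrial UMIs were left out. The automatic threshold of Scrublet (in scanpy 1.11.5) marked only 2 barcodes, so the highest doublet scores were removed at 0.8% per 1000 barcodes, 8247 in all. The Wilcoxon test over cells of the study was not used, since cells are not replicates, and DoubletFinder was not used either. UMIs were summed per library, or per library and gate with at least 20 cells, and tested over all genes by edgeR 4.0.16 (quasi-likelihood, TMM, filterByExpr, limma 3.58.1, R 4.3.3), with Benjamini-Hochberg adjustment at 0.05. DESeq2 1.42.0, run without filterByExpr on all genes with a UMI, was an alternative. Scripts ran in Python 3.11.15 (numpy 2.4.6, pandas 2.3.3, scipy 1.17.1, matplotlib 3.10.9), and the tests were checked on simulated data.

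Members at a mean of 10 CPM in whole libraries or 50 CPM in a gate were named with their values, and of the rest those called in a test. The members, gates and lists were chosen with earlier results of these data known. Gate markers not matched in the gene list included SOX1, SOX2, TUBB3, TWIST1, TWIST2 and HEMGN. Intervals and floors cover counting error only. Alternatives were other limits on barcodes, stricter and looser gates, another tool, no filter on low counts and leaving out each library.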

Additional observations from a re-analysis of the deposited data

Results flagged for a closer look

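Of 20 combinations of a named member and a period (E16 with E18, or E21 with E28, 4 libraries each), 1 stood out by Dixon's test for a single far value. CLDN5 was at 55.3 CPM in E21-ZZ, and the other 3 late libraries lay at 22.0, 23.2 and 26.2 CPM. Chance flags about 1 in 20 groups. E21-ZZ also had the highest CLDN5 level in endothelial cells, at 2526 CPM, and 101 endothelial cells against 49 to 71 in the other late libraries.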

How the results depend on the processing

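No member called in the main run reversed its direction under any alternative run. Members not called there were not followed for direction. The median of HAND+ keratin-rich against mesenchymal cells, which has no test, went from 0.07 to -0.0044 with KRT80 set to 0. Members called in the main run, in any comparison but that across all stages, were followed singly. In the alternative runs 1265 of their values passed the threshold too and 101 no longer did. Runs where the gene was not in the fit are not counted, nor are members called only in an alternative run. With DESeq2 the counts of members called were 11 for E18 against E16 (7 by edgeR), 11 for E28 against E21 (5) and 1 between the breeds (0). DESeq2 was run without the filter on low counts, so tool and filter changed together. With no filter on low counts, late against early neural cells gave 10 (5). Stricter gates gave 3 for HAND+ keratin-rich cells (5). For endothelial cells, the mitochondrial limit of 5% gave 3 and looser gates 3 (9), with CLDN5 called in both. Leaving out each library in turn gave 2 to 9 members at E18 against E16, 6 to 12 at E21 against E18, 0 to 6 at E28 against E21, 16 to 23 across stages and 0 to 0 between breeds. Against mesenchymal cells it gave 11 to 14 for EPCAM+, 3 to 5 for HAND+ keratin-rich, 8 to 9 for endothelial and 6 to 7 for neural cells. EPCAM+ against HAND+ keratin-rich cells gave 9 to 11, and late against early 3 to 5 in endothelial, 4 to 6 in neural and 7 to 9 in mesenchymal cells. The shares of all genes called in the alternative runs are not given, so these counts have no background beside them. The cause of the changes was not tested.

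No paired analysis was possible because the labels give no replicate numbers and each stage and breed has 1 library. The terms for library between gates, and for stage between breeds, are part of the design. Stricter gates left no fit for late against early mesenchymal cells, and the mitochondrial limit of 5% none for endothelial cells. Gates rest on few markers and leave most cells out, and a stage has 2 libraries. A count of 0 in every library allows a mean level of up to 1.42 CPM in mesenchymal and 4.05 CPM in HAND+ keratin-rich cells.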
